A study of Mus musculus with 8 samples.

Results

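Glutamate receptors, their auxiliary subunits and the scaffold proteins that hold them at the synapse were examined in the frontal cortex of mice that lack HAR123. The genes were taken by symbol from the ionotropic and metabotropic receptor families and their best known partners, 33 of the 55536 genes in the count table, whatever their counts. The 33 comprised 4 AMPA receptor, 6 NMDA receptor, 5 kainate receptor, 1 delta receptor and 6 metabotropic receptor genes, 3 AMPA and 2 kainate receptor auxiliary subunits, and 6 scaffolds. HAR123 is an enhancer inside an intron of SMG6 whose sequence changed rapidly on the human lineage. Its mouse counterpart was deleted with Cas9 and guide RNAs injected into C57BL/6J zygotes to give HAR123-KO mice. The labels list 4 WT and 4 HAR123-KO libraries from mice of 8 weeks, and the study's mice had been backcrossed to C57BL/6J for at least 8 passages. The paper describes the WT mice as littermates of the HAR123-KO mice, but the library titles name no litters. The sex of the animals and the number of animals behind each library were not given in the labels, so the p-values measure the spread between libraries.

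Glutamate is the main excitatory transmitter of the cortex. AMPA receptors are the channels that carry most of the fast synaptic current, NMDA receptors admit calcium when transmitter release and depolarization coincide, and kainate receptors sit on both sides of the synapse and tune release and excitability. Metabotropic receptors act through G proteins. At the postsynaptic density, receptors are held by layered scaffolds. PSD-95 lies nearest the membrane, SHANK proteins lie deeper in, and HOMER joins SHANK to the group I metabotropic receptors.

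Total counts ran from 13528251 to 17051001 per library, and nuclear protein-coding genes, leaving out Lars2, received 2786320 to 3732172. Most counts fell on 1 annotated gene, Gm42418, which RefSeq lists as a synonym of the ribosomal RNA pseudogene Rn18s-rs5. It took 56.8% to 58.05% of the counts in WT, 55.1%, 55.7% and 55.3% in HAR123-KO replicates 1 to 3, and 57.4% in HAR123-KO replicate 4. That percentage was thus below every WT library in 3 of the 4 HAR123-KO libraries and within the WT range in replicate 4, and its part in the results was not tested. A member had between 21 and 6745 raw counts in a library, so precision varied widely across the receptors. All 33 members passed the filter on low counts and received an adjusted p. Markers of neurons and astrocytes were abundant in every library, and no gene of the 9 marker lists was at 0 in all of them. Markers of striatal projection neurons were also read in both genotypes, summing to 1960 to 2020 CPM (here counts scaled to a common total of those nuclear protein-coding counts, which leaves out Gm42418) in WT and 2583 to 2618 in HAR123-KO. Those of choroid plexus, the epithelium of the brain ventricles, summed to 30.2 to 33.0 and 235.9 to 246.3. These genotype differences in tissue markers are given again beside the members they accompany.

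Of the receptors and scaffolds, 4 differed between the genotypes, and all by small amounts. Transcripts of Grm5, which encodes the mGlu5 receptor, were 13.8% higher in HAR123-KO. Those of the scaffolds Shank1, Shank2 and Homer1 were 9.73%, 12.9% and 9.46% lower. The remaining 29 members, all ionotropic receptor subunits among them, did not pass the test. An adjusted p under 0.05 from the Wald test of DESeq2, adjusted over all 12758 genes tested, counted as a call. By this rule 4 of the 33 members were called, against 1.69% of all genes tested. There was 1 higher (0.972% of all genes) and 3 lower (0.713% of all genes). No member passed the study's limits for this tissue, an adjusted p under 0.05 with an absolute log2 fold change over 0.5, which 0.298% of all genes passed. The count was also 0 with edgeR, with limma-voom, and with an unadjusted p under 0.05 in place of the adjusted one. The fraction of genes called rises with expression. All 4 called members were among the 12 whose mean reached 1000 normalized counts, and 12.6% of the 621 tested genes at or above that mean were called, a limit chosen after the values were seen.

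**Figure D1:**
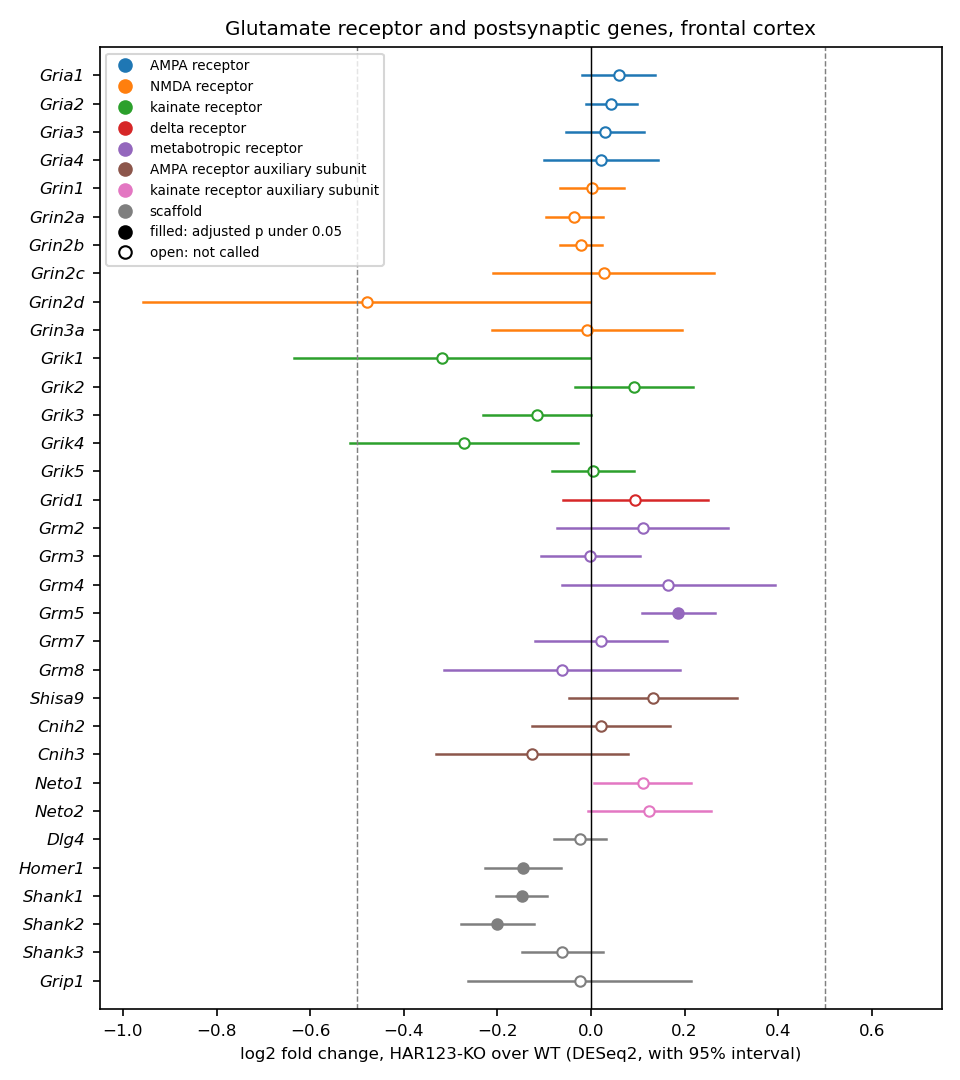
Log2 fold change in HAR123-KO over WT for each of the 33 genes, with its 95% interval from DESeq2, coloured by class; filled points had an adjusted p under 0.05 and dashed lines mark the study's limit of 0.5. Grm5 stands to the right of zero and Shank1, Shank2 and Homer1 to the left, and the widest intervals belong to Grin2d and Grik1, the least abundant genes.

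The median log2 fold change of the 33 members was 0.0023, beside -0.0010 over the 14464 genes whose mean reached 10 normalized counts, and 17 members had a positive and 16 a negative fitted value. By class the medians were 0.04 for AMPA receptors, -0.02 for NMDA receptors, -0.11 for kainate receptors, 0.07 for metabotropic receptors, 0.02 for AMPA auxiliary subunits, 0.12 for kainate auxiliary subunits and -0.10 for scaffolds. The 4 HAR123-KO libraries all lay above the 4 WT libraries for 3 members, Gria2, Grm5 and Neto2, as they did for 4.02% of all genes tested. They all lay below for Grik4, Shank1 and Shank2, as for 3.65% of all genes tested.

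Grm5 (ENSMUSG00000049583, chr7:87584168-88134907, plus strand, GRCm38) encodes mGlu5, the group I metabotropic receptor that couples to phospholipase C and, through HOMER, to the SHANK scaffold. It had 1215, 1144, 1196 and 1090.1 normalized counts in WT replicates 1 to 4 and 1328, 1322, 1330.3 and 1307 in HAR123-KO replicates 1 to 4. The lowest HAR123-KO library stood above the highest WT library, and the HAR123-KO libraries were closer together than the WT ones. The means were 1161 ± 56 in WT against 1322 ± 10.5 in HAR123-KO (SD, n = 4), for a log2 fold change of 0.19 ± 0.04 (SE, adjusted p = 0.000425 by DESeq2). The call held in all 8 fits that left out a library, with log2 fold changes from 0.16 to 0.21. It ended when the replicate number was added to DESeq2 as a block, and held with that block in edgeR.

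mGlu5 is abundant in the striatum as well as in the cortex, so the striatal markers are set beside Grm5. All 12 genes of the striatal projection neuron list had a positive fitted value and 10 were called higher, against 0.972% of all genes tested. The median log2 fold change of the 12 was 0.42. The 3 most abundant of them were Pde10a, which went from 1559.6 ± 57.4 to 1907 ± 79.5 normalized counts (log2 fold change 0.29, adjusted p = 2.42e-12), Adcy5, which went from 1307 ± 30 to 1599 ± 16.3 normalized counts (log2 fold change 0.29, adjusted p = 8.02e-13), and Ppp1r1b, which went from 833 ± 21.9 to 1066 ± 49.7 normalized counts (log2 fold change 0.36, adjusted p = 2.27e-12). The mean log2 CPM of the list was 6.62 to 6.68 in the WT libraries and 7.05 to 7.15 in the HAR123-KO libraries. The part of these cells in the Grm5 difference was not tested. In bulk tissue, more cells of a type and more RNA per cell cannot be told apart.

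The other metabotropic receptors were not called. These are the group II receptors Grm2 and Grm3 and the group III receptors Grm4, Grm7 and Grm8, which couple to the inhibition of adenylyl cyclase, and Grm3 is also an astrocyte gene. Grm3 had 625 ± 33.4 normalized counts in WT against 625 ± 16.8 in HAR123-KO (SD, n = 4), for a log2 fold change of -0.0012 ± 0.05. Grm2 had 193 ± 10.9 normalized counts in WT against 209 ± 15.9 in HAR123-KO (SD, n = 4), at a log2 fold change of 0.11 ± 0.09 (SE). Grm4 had 132 ± 18.3 normalized counts in WT against 148 ± 15.4 in HAR123-KO (SD, n = 4), at a log2 fold change of 0.17 ± 0.12 (SE). Both fitted values were positive but within the spread. Grm7 had 368 ± 30.9 normalized counts in WT against 374 ± 27.3 in HAR123-KO (SD, n = 4), at a log2 fold change of 0.02 ± 0.07 (SE). Grm8 had 116 ± 10.4 normalized counts in WT against 111 ± 18.4 in HAR123-KO (SD, n = 4), at a log2 fold change of -0.06 ± 0.13 (SE). The adjusted p of these 5 genes ran from 0.779 to 0.999. The astrocyte list summed to 7521 to 7711 CPM in WT and 6998 to 7176 in HAR123-KO. Of its genes, 2 of 10 genes had a positive fitted value and 3 were called lower, against 0.713% of all genes tested. Among these 3 were the glutamate transporters Slc1a2 and Slc1a3. Slc1a2 went from 18759.9 ± 247 to 17454 ± 209 normalized counts (log2 fold change -0.10, adjusted p = 9.54e-06). Slc1a3 went from 1489.7 ± 42.4 to 1316 ± 33.2 normalized counts (log2 fold change -0.18, adjusted p = 0.000288). The 95% interval of the Grm3 log2 fold change was -0.11 to 0.10.

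Among the 6 scaffold members, Shank2 had the most negative log2 fold change. Shank1 (-0.15) and Homer1 (-0.14) followed, too close to rank. SHANK proteins are the large multidomain scaffolds that link the receptor complexes to HOMER and the actin cytoskeleton. Shank2 (ENSMUSG00000037541, chr7:144001928-144424494, plus strand, GRCm38) had 1224, 1291, 1249 and 1302 normalized counts in WT replicates 1 to 4 and 1128, 1080.2, 1108 and 1093 in HAR123-KO replicates 1 to 4. All HAR123-KO libraries were below all WT libraries. The means were 1266 ± 36.5 in WT against 1102 ± 20.7 in HAR123-KO (SD, n = 4), for a log2 fold change of -0.20 ± 0.04 (SE, adjusted p = 9.7e-05 by DESeq2).

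Shank1 (ENSMUSG00000038738, chr7:44310253-44360572, plus strand, GRCm38) had the highest level per length of all the members. It had 5188, 5171, 5129.5 and 5049 normalized counts in WT replicates 1 to 4 and 4453, 4633, 4544 and 4910.1 in HAR123-KO replicates 1 to 4. The groups did not overlap, although HAR123-KO replicate 4, whose Gm42418 percentage was within the WT range, lay near the WT libraries. The 4 HAR123-KO values of Shank1 stood in the same order as that percentage, but the 4 WT values did not. The HAR123-KO values of Grin1 and Gria2, which were not called, also stood in this order. No background for such an order was computed, and the part of the percentage was not tested. The means were 5134 ± 61.8 in WT against 4635 ± 198 in HAR123-KO (SD, n = 4), for a log2 fold change of -0.15 ± 0.03 (SE, adjusted p = 2.75e-05 by DESeq2), and without HAR123-KO replicate 4 the value was -0.18. Both Shank1 and Shank2 stayed called in all 8 fits that left out a library. Both calls ended with the replicate block in DESeq2 and held with it in edgeR. Exons of Shank1 overlap the antisense gene 1700008O03Rik, and the strand setting at counting is not given in the sources used here.

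Shank3 (ENSMUSG00000022623, chr15:89499623-89560261, plus strand, GRCm38) was not called. It had 1177 ± 37.4 normalized counts in WT against 1129.7 ± 76.2 in HAR123-KO (SD, n = 4), for a log2 fold change of -0.06 ± 0.04 (SE, adjusted p = 0.791 by DESeq2). Of its HAR123-KO libraries 3 lay below all WT libraries and 1, replicate 4, lay above them. These 4 values too stood in the order of the Gm42418 percentage, which in replicate 4 was within the WT range. The 4 WT values of Shank3 did not, nor did the HAR123-KO values of the called Shank2 and Homer1. Without HAR123-KO replicate 4 the log2 fold change was -0.11 (adjusted p = 0.281 by DESeq2). With all libraries, its 95% interval of -0.15 to 0.02 overlapped that of Shank1, -0.20 to -0.09, and of Shank2, -0.28 to -0.12, and no difference between the fold changes of the 3 genes was tested. Within the family, Shank1 held 66.5% ± 0.22 in WT against 66.2% ± 0.39 in HAR123-KO of the reads per kb. Shank2 held 16.0% ± 0.57 in WT against 15.4% ± 0.78 in HAR123-KO, and Shank3 held 17.4% ± 0.45 in WT against 18.4% ± 0.51 in HAR123-KO (SD, n = 4). Exons of Shank3 overlap the antisense gene Gm15609. The Shank3 share was at most 17.8% in WT and at least 18.1% in HAR123-KO, without overlap.

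Homer1 (ENSMUSG00000007617, chr13:93299635-93405129, plus strand, GRCm38) encodes the adaptor that ties mGlu5 and the inositol trisphosphate receptor to SHANK. It had 1313, 1309, 1313 and 1183 normalized counts in WT replicates 1 to 4 and 1167, 1104, 1184 and 1178 in HAR123-KO replicates 1 to 4. WT replicate 4 lay with the HAR123-KO libraries, and 3 of the 4 HAR123-KO libraries were below every WT library. The means were 1279 ± 64.2 in WT against 1158 ± 37 in HAR123-KO (SD, n = 4), for a log2 fold change of -0.14 ± 0.04 (SE, adjusted p = 0.0316 by DESeq2). This call was the least stable. It ended when any 1 of replicates 1, 2 and 3 was left out, in either genotype, with adjusted p from 0.0877 to 0.372, while it held without WT replicate 4 (adjusted p = 0.00356) or HAR123-KO replicate 4 (adjusted p = 0.0417). It also ended with size factors from 14 neuron markers (adjusted p = 0.164). The fitted value stayed negative throughout, from -0.18 to -0.11. Homer1 makes a short form that neuronal activity induces and long forms that build the scaffold, and a count per gene does not separate them.

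Homer1 was the only called member with a promoter in the RefSeq table used here, which matched 20 of the 33 members by symbol. The 250 bases before each of its 2 listed starts are shown because Homer1 is known to respond to neuronal activity, with the letters TGACG or their reverse complement in capitals. TGACG is the core of the cyclic AMP response element TGACGTCA, so every full element also holds it. The promoter of Shank3, the SHANK gene that was not called, stands for comparison, with GC boxes (GGGCGG or its reverse complement) in capitals. All are from GRCm38.p6, plus strand, and lie outside the annotated exons of their genes.
Homer1, first start, chr13:93303507-93303756: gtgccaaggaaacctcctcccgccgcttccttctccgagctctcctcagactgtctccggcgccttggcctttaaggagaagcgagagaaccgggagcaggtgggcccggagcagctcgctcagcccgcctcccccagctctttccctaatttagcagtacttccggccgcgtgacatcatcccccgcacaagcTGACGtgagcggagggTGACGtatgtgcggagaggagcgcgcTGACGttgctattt
Homer1, second start, chr13:93307784-93308033: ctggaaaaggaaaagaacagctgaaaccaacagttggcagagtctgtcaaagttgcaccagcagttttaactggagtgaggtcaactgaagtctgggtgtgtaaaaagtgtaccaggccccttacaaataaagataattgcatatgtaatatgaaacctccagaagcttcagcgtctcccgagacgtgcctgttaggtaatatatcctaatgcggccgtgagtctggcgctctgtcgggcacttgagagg
Shank3, chr15:89499358-89499607: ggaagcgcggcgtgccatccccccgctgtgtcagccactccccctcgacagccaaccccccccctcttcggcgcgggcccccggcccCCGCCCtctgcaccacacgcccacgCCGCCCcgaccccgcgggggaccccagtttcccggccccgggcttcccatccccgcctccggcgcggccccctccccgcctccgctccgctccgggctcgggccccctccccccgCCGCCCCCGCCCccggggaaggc

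The first Homer1 window held TGACG at 3 places, beginning 56, 40 and 14 bases before the start, and the second window held none. On both strands, 17.8% of the 32851 promoter windows of the same length held at least 1 TGACG and 0.688% held at least 3. Neither Homer1 window held the full TGACGTCA, which 1.55% of all windows held. The Shank3 window held 4 GC boxes and no TGACG. At least 1 GC box stood in 32.7% of all windows and at least 4 in 4.09%. These matches describe the letters only.

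**Figure D2:**
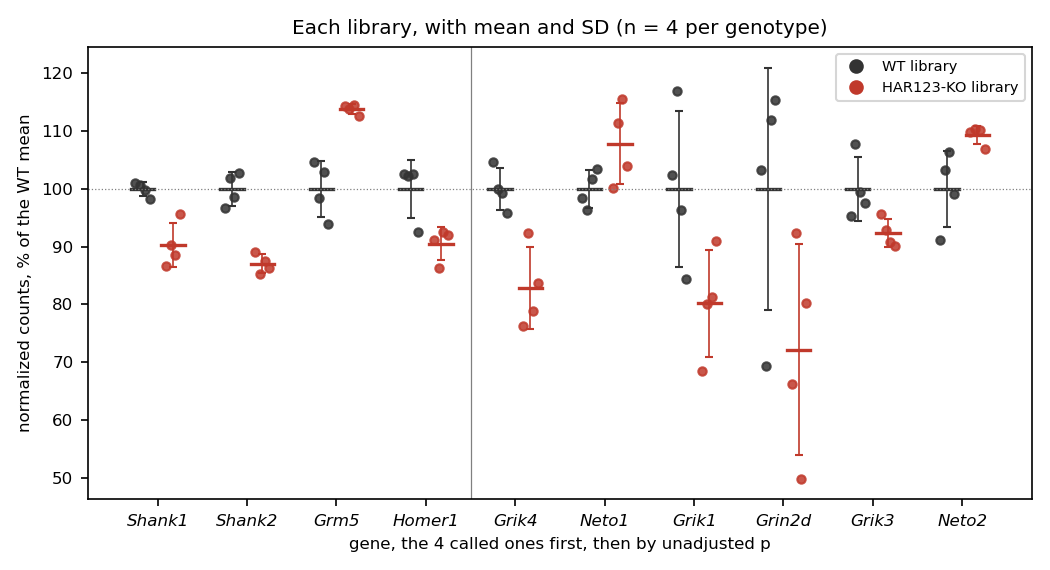
Normalized counts of 10 genes in each library as a percent of the WT mean, with horizontal bars for the mean and error bars for the SD (n = 4 per genotype); black points are WT and red points HAR123-KO libraries. The 4 called genes on the left combine small shifts with small spread, whereas Grik1 and Grin2d on the right shift more and scatter more.

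Of the other 2 scaffolds, Dlg4 encodes PSD-95, the most abundant scaffold at the receptor layer, and Grip1 encodes a PDZ protein that binds AMPA receptor subunits. Dlg4 had 3032, 2979, 3037 and 3070.2 normalized counts in WT replicates 1 to 4 and 2936, 3000.0, 3054 and 2928 in HAR123-KO replicates 1 to 4. The groups overlapped, and the log2 fold change was -0.02 ± 0.03 (SE, adjusted p = 0.929 by DESeq2), with a 95% interval of -0.08 to 0.03. Grip1 had 118 ± 6.56 normalized counts in WT against 116 ± 13.2 in HAR123-KO (SD, n = 4), for a log2 fold change of -0.02 ± 0.12. Among 18 other postsynaptic scaffolds, 4 had a positive fitted value, and the median log2 fold change was -0.04. The 1 called was Cnksr2, a RAS pathway scaffold that binds PSD-95, which rose from 1553 ± 41.6 to 1924 ± 20.6 normalized counts (log2 fold change 0.31, adjusted p = 3.08e-16). The mean reached 1000 normalized counts in 6 of the 18, of which 1 was called, against 12.6% of all genes with such means.

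The AMPA receptor subunits were measured precisely, and 0 of 4 were called by DESeq2, edgeR or limma-voom, with 0 at an unadjusted p under 0.05. Gria1 encodes GluA1, the subunit delivered to synapses during potentiation, and Gria2 encodes GluA2, whose edited form keeps calcium out of the channel. Gria1 had 1165, 1193, 1237 and 1221 normalized counts in WT replicates 1 to 4 and 1211, 1253, 1313 and 1242 in HAR123-KO replicates 1 to 4. The groups overlapped, with 3 HAR123-KO libraries above every WT library, and gave a log2 fold change of 0.06 ± 0.04 (SE, adjusted p = 0.754 by DESeq2). Gria2 had 2833, 2949.6, 2907 and 2863 normalized counts in WT replicates 1 to 4 and 2961, 2988, 2971 and 2992 in HAR123-KO replicates 1 to 4. Every HAR123-KO library exceeded every WT library, by as little as 11.4 counts between the nearest 2, and the log2 fold change of 0.04 ± 0.03 (SE, adjusted p = 0.731 by DESeq2) did not pass the test. Gria3 had 1151 ± 41.5 normalized counts in WT against 1174 ± 52.6 in HAR123-KO (SD, n = 4), at a log2 fold change of 0.03 ± 0.04 (SE). Gria4 had 462 ± 7.93 normalized counts in WT against 469 ± 31.4 in HAR123-KO (SD, n = 4), at a log2 fold change of 0.02 ± 0.06 (SE). All 4 subunits had positive fitted values, the largest 0.06, and the highest upper bound of their 95% intervals was 0.14.

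The makeup of the AMPA receptor pool, as reads per kb of exon, was close in the 2 genotypes. Gria1 held 34.6% ± 0.63 in WT against 35.0% ± 0.49 in HAR123-KO (SD, n = 4). Gria2 held 32.3% ± 0.31 in WT against 32.3% ± 0.84 in HAR123-KO. Gria3 held 20.3% ± 0.61 in WT against 20.1% ± 0.46 in HAR123-KO and Gria4 12.8% ± 0.37 in WT against 12.5% ± 0.64 in HAR123-KO. The ranges overlapped for all 4. Without division by exon length Gria2 took 50.6% of the AMPA receptor reads in WT, since its annotated exons are the longest of the class.

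Auxiliary subunits set the trafficking and gating of AMPA receptors. The 3 of them among the members were not called by any of these tools, and 0 of 3 had an unadjusted p under 0.05. Cnih2 had 299 ± 16.6 normalized counts in WT against 304 ± 8.81 in HAR123-KO (SD, n = 4), at a log2 fold change of 0.02 ± 0.08 (SE). Cnih3 had 178 ± 19.1 normalized counts in WT against 162 ± 16.1 in HAR123-KO (SD, n = 4), at a log2 fold change of -0.13 ± 0.10 (SE). Shisa9 had 202 ± 8.41 normalized counts in WT against 222 ± 20.6 in HAR123-KO (SD, n = 4), at a log2 fold change of 0.13 ± 0.09 (SE). Their adjusted p ran from 0.769 to 0.990. Exons of Cnih2 overlap the gene Yif1a on the other strand, so its level may hold reads of Yif1a. Of 17 other AMPA receptor partners 4 had a positive fitted value, with a median log2 fold change of -0.09. DESeq2 and limma-voom called 1 of them, Nptxr, the membrane-bound neuronal pentraxin that clusters AMPA receptors, which fell from 2446 ± 61.6 to 2173 ± 38.7 normalized counts (log2 fold change -0.17, adjusted p = 8.78e-06). With edgeR 2 were called, the second being Cacng4, an AMPA receptor auxiliary subunit (log2 fold change 0.28, adjusted p = 0.0462 by edgeR and 0.155 by DESeq2), and 6 had an unadjusted p under 0.05 in DESeq2. The mean reached 1000 normalized counts in 3 of the 17, of which DESeq2 called 1, against 12.6% of all genes with such means.

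Of the 6 NMDA receptor genes, 0 were called by DESeq2, edgeR or limma-voom, and 1 had an unadjusted p under 0.05. Grin1 encodes the obligatory GluN1 subunit, and Grin2a and Grin2b the GluN2A and GluN2B subunits whose balance shifts from 2B to 2A as the cortex matures. Grin1 had 2057, 1932, 1877 and 1948 normalized counts in WT replicates 1 to 4 and 1883, 1968, 1919 and 2049 in HAR123-KO replicates 1 to 4. The groups overlapped, with a log2 fold change of 0.0023 ± 0.04 (SE, adjusted p = 0.998 by DESeq2). Grin2a had 2551, 2674, 2677 and 2626 normalized counts in WT replicates 1 to 4 and 2513, 2534, 2536 and 2703 in HAR123-KO replicates 1 to 4. Of its HAR123-KO libraries 3 lay below every WT library, but replicate 4, the library with a Gm42418 percentage within the WT range, was the highest of all 8, and the log2 fold change was -0.04 ± 0.03 (SE, adjusted p = 0.871 by DESeq2). Grin2b had 5557, 5597, 5715 and 5676 normalized counts in WT replicates 1 to 4 and 5649.6, 5579, 5548 and 5442 in HAR123-KO replicates 1 to 4. The groups overlapped, with a log2 fold change of -0.02 ± 0.02 (SE, adjusted p = 0.917 by DESeq2) and an interval of -0.07 to 0.02, the narrowest of the 33. Of the reads per kb of Grin2a and Grin2b together, Grin2b held 60.7% ± 0.41 in WT against 60.9% ± 1.2 in HAR123-KO (SD, n = 4). The Grin2b share was 61.1%, 60.2%, 60.6% and 60.9% in WT replicates 1 to 4 and 61.9%, 61.4%, 61.2% and 59.2% in HAR123-KO replicates 1 to 4. All but HAR123-KO replicate 4 of the HAR123-KO libraries lay above the WT libraries, and the difference of 0.209 percentage points became 0.775 without that replicate and -0.106 without HAR123-KO replicate 1. Exons of Grin1 and Grin2b overlap antisense genes.

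The scarcer NMDA receptor genes gave wide intervals. Grin2d, the GluN2D gene, best known from interneurons, had 38.3, 25.7, 41.5 and 42.8 normalized counts in WT replicates 1 to 4 and 24.6, 34.2, 18.5 and 29.8 in HAR123-KO replicates 1 to 4. The groups overlapped, and the log2 fold change of -0.48 ± 0.24 (SE, adjusted p = 0.558 by DESeq2) had an interval of -0.96 to -0.0028 and an unadjusted p of 0.0487. Grin2c had 128 ± 19.3 normalized counts in WT against 131 ± 12.5 in HAR123-KO (SD, n = 4), at a log2 fold change of 0.03 ± 0.12 (SE). Grin3a had 166 ± 15.3 normalized counts in WT against 164 ± 13.2 in HAR123-KO (SD, n = 4), at a log2 fold change of -0.0089 ± 0.10 (SE). The interneuron list had 0 of 10 genes called by DESeq2, edgeR or limma-voom, 1 with an unadjusted p under 0.05, and a median log2 fold change of -0.04, and summed to 974.5 to 995.8 CPM in WT and 960.7 to 1027 in HAR123-KO. At these counts a change of the size seen for Grm5 was not detectable in Grin2d.

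The kainate receptor genes held 3 of the 6 smallest unadjusted p after the called genes, all for lower values, yet 0 of the 5 genes were called by DESeq2, edgeR or limma-voom, and 2 had an unadjusted p under 0.05. GluK1 to GluK3, from Grik1 to Grik3, form channels alone, while GluK4 and GluK5, from Grik4 and Grik5, join them. Grik4 had 125, 119, 119 and 114 normalized counts in WT replicates 1 to 4 and 91.1, 110.3, 94.2 and 100 in HAR123-KO replicates 1 to 4. All HAR123-KO libraries were below all WT libraries, with a log2 fold change of -0.27 ± 0.12 (SE, adjusted p = 0.461 by DESeq2) and an unadjusted p of 0.0295. Grik1 had 76.6, 87.5, 72 and 63.1 normalized counts in WT replicates 1 to 4 and 51.2, 59.9, 60.8 and 68.1 in HAR123-KO replicates 1 to 4. The groups overlapped in 1 HAR123-KO library, and the log2 fold change was -0.32 ± 0.16 (SE, adjusted p = 0.557 by DESeq2) with an unadjusted p of 0.0482. Grik3 had 507, 573, 529 and 519 normalized counts in WT replicates 1 to 4 and 509, 494, 483 and 479.6 in HAR123-KO replicates 1 to 4. Of its HAR123-KO libraries 3 were below the WT range, and the log2 fold change was -0.11 ± 0.06 (SE, adjusted p = 0.568 by DESeq2) with an unadjusted p of 0.0503.

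Grik5 and Grik2 did not share this direction. Grik5 had 899 ± 37.4 normalized counts in WT against 901 ± 2.58 in HAR123-KO (SD, n = 4), at a log2 fold change of 0.0035 ± 0.04 (SE). Grik2 had 429.6 ± 30.2 normalized counts in WT against 459 ± 17.6 in HAR123-KO (SD, n = 4), at a log2 fold change of 0.09 ± 0.06 (SE). Grik5 was the main kainate receptor transcript, holding 58.6% ± 1.9 in WT against 60.3% ± 0.32 in HAR123-KO of the class's reads per kb (SD, n = 4). The share of Grik4 was 6.75% ± 0.38 in WT against 5.73% ± 0.48 in HAR123-KO, and that of Grik2 was 10.9% ± 0.73 in WT against 11.97% ± 0.46 in HAR123-KO. Neither share overlapped between the genotypes, although for Grik2 the lowest HAR123-KO and the highest WT library both rounded to 11.6%. Of 26 shares computed over the receptor classes and 2 smaller pools, 3 did not overlap, those of Grik2, Grik4 and Shank3. The shares of a pool sum to the whole and so are not independent, and no background for them was computed. For single levels, 4.02% of all genes tested had every HAR123-KO library above every WT library and 3.65% had every one below.

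Neto1 and Neto2, which encode the membrane partners that slow kainate receptor gating, both had positive values. Neto1 had 652, 638, 674 and 686 normalized counts in WT replicates 1 to 4 and 663, 739, 766 and 689 in HAR123-KO replicates 1 to 4. Of the HAR123-KO libraries 3 exceeded the WT range, with a log2 fold change of 0.11 ± 0.05 (SE, adjusted p = 0.497 by DESeq2) and an unadjusted p of 0.0362. Neto2 had 337, 381, 392.3 and 366 normalized counts in WT replicates 1 to 4 and 405, 407, 407 and 395 in HAR123-KO replicates 1 to 4. The groups did not overlap, by a margin of 2.25 counts, and the log2 fold change was 0.13 ± 0.07 (SE, adjusted p = 0.61 by DESeq2) with an unadjusted p of 0.0624. Grid1, the delta receptor gene whose product binds cerebellin at the synapse rather than gating with glutamate, had 264 ± 12.6 normalized counts in WT against 282 ± 13.6 in HAR123-KO (SD, n = 4), at a log2 fold change of 0.09 ± 0.08 (SE).

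**Figure D3:**
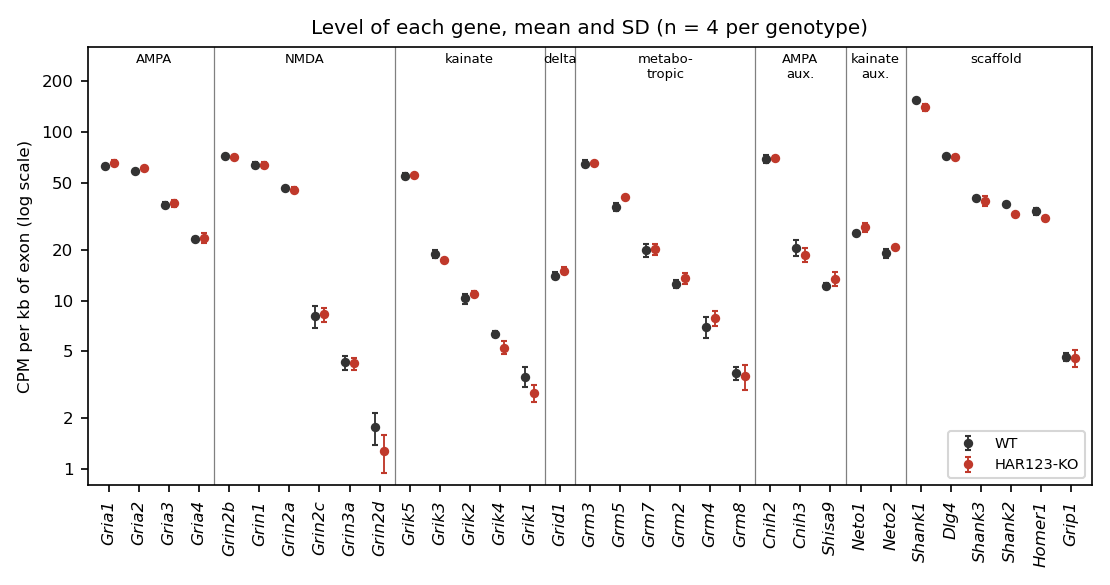
CPM per kb of exon, over nuclear protein-coding reads (log scale) for each gene, grouped by class, as mean and SD of 4 libraries per genotype (WT black, HAR123-KO red). Shank1 is the highest at 155 in WT and Grin2d the lowest at 1.77, and the genotypes lie close together beside this range.

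Compared per length, the members spanned an 87.7-fold range in WT. The level, in CPM of nuclear protein-coding reads per kb of exon, was 155. ± 2.01 for Shank1, 72.6 ± 0.957 for Dlg4 and 72.1 ± 0.746 for Grin2b (SD, n = 4), the 3 highest. Dlg4 and Grin2b did not differ beyond their spread. Next came Cnih2 at 69.3 ± 3.62, Grm3 at 65.1 ± 3.44, Grin1 at 64.0 ± 2.67 and Gria1 at 63.3 ± 1.49. The spreads of neighbours in this order met, but those of Cnih2 and Gria1 did not. The lowest were Grm8 at 3.71 ± 0.329, Grik1 at 3.54 ± 0.480 and Grin2d at 1.77 ± 0.371. Exon length here joins the exons of all annotated transcripts, so genes with long, rarely used exons are understated. Grm5 rose on this scale from 36.0 ± 1.73 to 41.0 ± 0.310, and its share of the metabotropic pool was 25.0% ± 1.6 in WT against 27.1% ± 0.61 in HAR123-KO (SD, n = 4), with overlap. Shank2 fell from 37.4 ± 1.08 to 32.5 ± 0.600 and Homer1 from 33.9 ± 1.68 to 30.7 ± 0.961.

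Of 16 signalling genes downstream of the receptors, DESeq2 called 4 higher and 1 lower, against 0.972% and 0.713% of all genes tested. The mean reached 1000 normalized counts in 9 of these 16 genes, of which 4 were called, against 12.6% of all genes with such means. In either direction edgeR called 4 and limma-voom 6. The calcineurin catalytic subunit Ppp3ca rose from 4079.7 ± 47.6 to 4612 ± 70.8 normalized counts (log2 fold change 0.18, adjusted p = 5.21e-10). Akap5, the anchor that brings calcineurin and protein kinase A to AMPA receptors, rose from 705 ± 38.3 to 845 ± 30.5 normalized counts (log2 fold change 0.26, adjusted p = 2.95e-05). Itpr1, the calcium release channel reached by mGlu5 through phospholipase C, rose from 4001 ± 13.2 to 4419 ± 151 normalized counts (log2 fold change 0.14, adjusted p = 3.12e-05). Of the kinase subunits, Camk2b rose from 2562 ± 70.3 to 2785 ± 32.5 normalized counts (log2 fold change 0.12, adjusted p = 0.00506), a call that ended without WT replicate 1 (adjusted p = 0.136). Camk2a went from 11108 ± 165 to 10481 ± 155 normalized counts (log2 fold change -0.08, adjusted p = 0.0055). The Camk2a call ended with edgeR (adjusted p = 0.0819), with neuron marker size factors (adjusted p = 0.253) and without WT replicate 3 (adjusted p = 0.0651). The 4 signalling genes that rose, like Cnksr2 and Grm5, were higher in the same genotype as the striatal projection neuron markers, whose part was not tested.

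On the presynaptic side, Slc17a7, the vesicular glutamate transporter of cortical excitatory neurons, fell from 3647 ± 47.2 to 3260.0 ± 129.7 normalized counts (log2 fold change -0.16, adjusted p = 8.21e-06) and was the 1 called of 3 such transporters. Its mean was above 1000 normalized counts, where 12.6% of all genes tested were called. Of 20 adhesion genes across the synapse, 5 had a positive fitted value and DESeq2, edgeR and limma-voom called 0, with 5 at an unadjusted p under 0.05 and a median log2 fold change of -0.03. Of the 4 other glutamate receptors 0 were called by these tools and 0 had an unadjusted p under 0.05, and 2 had no adjusted p. The neuron list had a median log2 fold change of -0.06, with 1 of 14 genes, Nrgn, called lower by DESeq2 and 3 called by edgeR and by limma-voom, and its summed level was 11030 to 11170 CPM in WT and 10780 to 10930 in HAR123-KO. Upper layer cortical markers summed to 1294 to 1354 CPM in WT and 1185 to 1247 in HAR123-KO. They had negative fitted values for 8 of 8 genes (median -0.11, 1 called), and deep layer markers positive ones for 6 of 8 (median 0.05, 0 called by DESeq2, 1 by edgeR, 0 by limma-voom and 2 at an unadjusted p under 0.05). Shank1, Shank2, Homer1 and Slc17a7 were lower in the same genotype as the neuron and upper layer lists, whose part in the result was not tested.

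With size factors taken from the 14 neuron markers, Shank1 (log2 fold change -0.11), Shank2 (-0.16) and Grm5 (0.22) were still called. Markers of claustrum and layer 6b summed to 203.5 to 222.2 CPM in WT and 155.9 to 159.8 in HAR123-KO. Of these 7 genes, 3 were called lower and 1 higher, against 0.713% and 0.972% of all genes tested. The oligodendrocyte precursor list had 0 of 7 called by DESeq2, edgeR or limma-voom and 2 at an unadjusted p under 0.05. Choroid plexus genes had 10 of 10 fitted higher. DESeq2 called both of the 2 choroid plexus genes that had an adjusted p, edgeR and limma-voom called 4 each, and 9 had an unadjusted p under 0.05.

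**Figure D4:**
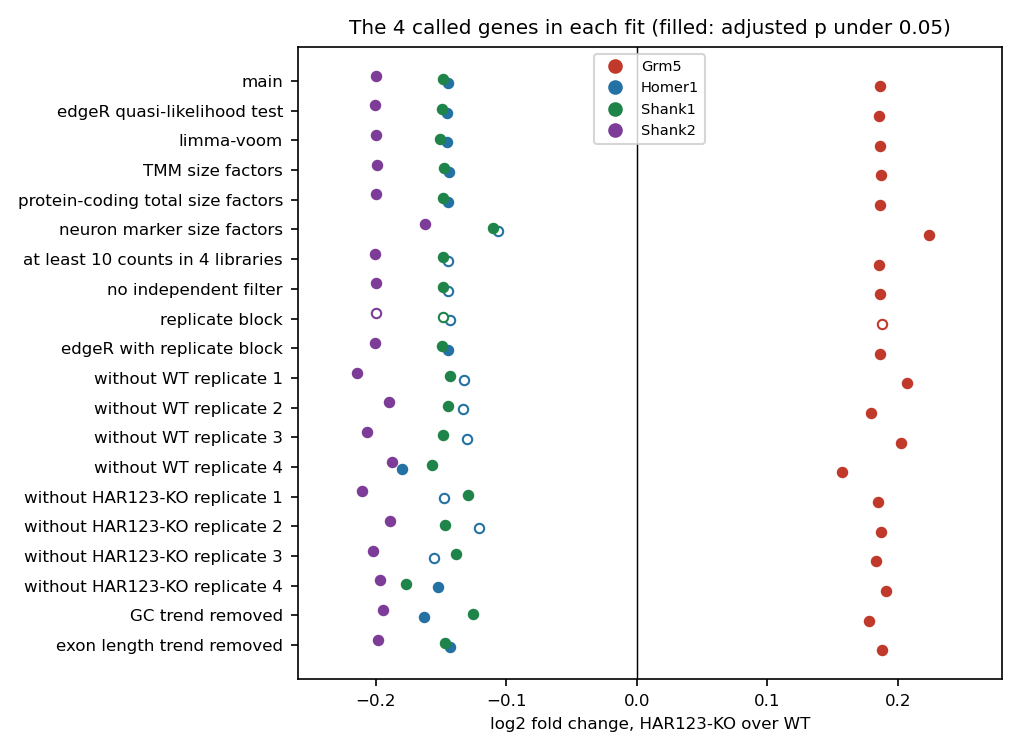
Log2 fold change in HAR123-KO over WT of the 4 called genes in the fit reported here (top) and in each alternative; filled points had an adjusted p under 0.05. The directions hold in every fit, Grm5, Shank1 and Shank2 are open only with DESeq2's replicate block, and Homer1 is open in 10 fits.

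The precision for the 29 members that were not called depended on abundance. For the 12 of them whose mean reached 500 normalized counts, all 95% intervals lay between -0.23 and 0.21 on the log2 scale. For the 15 with means between 100 and 500 they lay between -0.51 and 0.39. The 2 below a mean of 100, Grin2d and Grik1, had intervals from -0.96 to -0.0025. Grm5, Shank1 and Shank2 lie far apart on chromosome 7, which carries 5 of the 33 members, so 3 of the 4 calls are on 1 chromosome, and no test was made of this.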

How the data were processed

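Total RNA of the frontal cortex was depleted of ribosomal RNA, made into directional libraries and sequenced as paired ends. The deposited values are raw read counts per gene, which the authors made with STAR 2.5.2b on GRCm38 and featureCounts over exons, per the labels. The strand setting and the treatment of reads with several matches are not given in the sources used here. All 55536 gene identifiers had the same start and end in GENCODE M21, which supplied symbols and exon lengths, and 0 value columns were left unused.

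Libraries were grouped by their titles. Genotypes were compared in DESeq2 1.42.0 (Wald test, R 4.3.3), the study's tool, with its default size factors (median of ratios) and genotype alone as a term. Its independent filter on low means was kept, and p-values were adjusted by Benjamini-Hochberg across all genes left. Intervals are 95% normal intervals of the fitted log2 fold change. Alternatives were edgeR 4.0.16, limma-voom (limma 3.58.1), size factors from TMM, protein-coding totals or neuron markers, a floor of 10 counts in 4 libraries, the filter turned off, stricter limits (adjusted p under 0.01, log2 fold change over 1), a replicate block, and leaving out each library. Chosen after seeing the data were removal of each library's trend with GC content or exon length, and the replicate block in edgeR. The fits were tested on simulated data first. Shares and marker levels were given without a test, the latter as mean log2 CPM with 1 count added. CPM were computed over nuclear protein-coding genes without Lars2.

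The members and lists were chosen with earlier results of these data known. Values in every library were given for called members, for those with the smallest unadjusted p up to 10 in all, and for Gria1, Gria2, Grin1, Grin2a, Grin2b, Grm5, Dlg4 and Homer1. Of other pathway lists, up to 5 called genes each were named, and of marker lists up to 3 of the highest mean. Ctgf, a claustrum and layer 6b marker, had no row under this symbol. Promoter sequences are from RefSeq on GRCm38.p6. Depth limits the precision of genes with few counts, and copies made in PCR were not removed by molecular tags.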

Additional observations from a re-analysis of the deposited data

Results flagged for a closer look

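In 4 of the 84 groups of 4 libraries examined (33 members and 9 marker lists in each genotype), 1 library lay far from the other 3 by Dixon's test at the 95% level. Chance sets apart about 1 group in 20, or 4.2 of 84. Homer1 had 1183 normalized counts in WT replicate 4, against 1309 to 1313 in the other WT libraries, and without it the log2 fold change went from -0.14 to -0.18. Grin2a had 2703 in HAR123-KO replicate 4, against 2513 to 2536 in the others of its genotype. Neto2 had 394.6 in HAR123-KO replicate 4, against 405.4 to 407, and Shisa9 had 189.4 in WT replicate 2, against 204.9 to 207.5.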

How the results depend on the processing

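Of the 4 members called, Grm5, Shank1 and Shank2 kept their direction and their call in all alternatives except the replicate block in DESeq2. Homer1 kept its direction in all of them and lost its call in 10, among them the count floor (adjusted p = 0.0649) and the filter turned off (adjusted p = 0.0697). Each fit without 1 library called 3 or 4 members, and 0 members passed the study's limits in any alternative. Same-numbered libraries correlated in their deviations between -0.0274 and 0.0289, and libraries with different numbers between -0.0295 and 0.0307. This gave no sign that the replicate numbers pair the libraries. It cannot exclude shared litters or batches, because noise in single genes can hide them. With the replicate number as a block, DESeq2 called 0 members, 1 gene of the other pathway lists (8 without the block) and, over all genes, 18 higher and 4 lower. The standard error of Grm5 went from 0.04 to 0.07 there, at a log2 fold change of 0.19. The same block in edgeR called all 4 members and 7 pathway genes, over 14503 genes tested. The cause of the gap between the tools was not tested. With neuron marker size factors, the median log2 fold change of members was 0.0402, and over all genes 235 were higher and 63 lower, against 124 and 91. In 545 alternative values of the 29 other members, the smallest adjusted p was 0.0791. Over all genes, edgeR had 73 past the study's limits, against 38. The genotype difference in the share of Grik2 in kainate receptor reads, 1.04 percentage points, became 1.92 without division by length and 0.69 without WT replicate 4. Depth limits the members below 100 normalized counts, Grin2d and Grik1.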
